A study of Mus musculus with 8 samples.

Results

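The genes described here encode the proteins of the cytosolic ribosome. They were chosen by symbol, as the rows of the count table whose mouse symbol has the form of a large subunit (Rpl or Rplp) or small subunit (Rps) protein or is Rpsa. Rps27l, entries named as pseudogenes and the Rps6k kinases were left out. The rule found 83 of the 27179 genes in the table, 52 of the large and 31 of the small subunit. Of these, 80 had enough counts to be tested, 49 of the large subunit and all 31 of the small.

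The comparison was of cerebral cortex from mouse embryos labelled Taf8-deleted (genotype Taf8 -/lox, 4 embryos) with cortex from wild-type embryos (Taf8 +/+, 4 embryos). The Taf8 protein is part of TFIID, a general factor that contacts the core promoter and helps RNA polymerase II to load there. Stranded libraries of polyadenylated RNA were read in pairs, and each library came from its own embryo. No source used here gives the embryonic day, the strain or the Cre driver. The controls carry no lox allele by their label, so an effect of the lox allele or of Cre itself cannot be told apart from the loss of Taf8. Wild-type replicates 1, 2 and 3 have the animal numbers 408.4, 408.5 and 408.6, and the part of the number before the point is never shared by the 2 genotypes. Whether it stands for a litter or a batch is not stated, and such an effect cannot be told apart from genotype.

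Each ribosome joins a small subunit, which reads the messenger RNA, to a large subunit, which makes the peptide bond and holds the tunnel through which the new protein leaves. Nearly every ribosomal protein is needed in equal number, and the genes that encode them lie scattered over the genome with promoters that mostly lack a TATA box. Their messenger RNAs begin with a C and a run of pyrimidines, the TOP motif, through which the mTOR kinase and the RNA-binding protein Larp1 control their translation. In the developing forebrain these genes are most active in early neural progenitors and less active as the tissue matures. Mammalian ribosomal protein genes have also left many processed pseudogenes, near copies of the messenger RNA, so that a short read from one of them can match several places in the genome.

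Promoters are shown for the 4 lower and the 4 higher members of largest change that have an entry in the RefSeq promoter table (GRCm38.p6, the sequence of mm10), so that the letters around the start can be set beside the direction of change given below. Each sequence holds the 80 bases before and the first 20 bases from the annotated start. Capitals mark CCGGAAG (the core of an ETS or GABPA site) and AAGATGG (the core of a YY1 site) on either strand, and a run of at least 6 pyrimidines on the sense strand that begins between 5 bases before and 10 bases after the start. The first 4 were lower in Taf8-deleted cortex and the last 4 were higher.
Rps16 (chr7:28350609-28350708, plus strand): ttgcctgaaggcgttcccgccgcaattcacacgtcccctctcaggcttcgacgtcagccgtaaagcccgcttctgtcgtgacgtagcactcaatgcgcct
Rps21 (chr2:180257299-180257398, plus strand): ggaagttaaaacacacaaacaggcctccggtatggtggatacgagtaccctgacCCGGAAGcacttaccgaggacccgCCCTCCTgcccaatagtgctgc
Rps4x (chrX:102189372-102189471, minus strand): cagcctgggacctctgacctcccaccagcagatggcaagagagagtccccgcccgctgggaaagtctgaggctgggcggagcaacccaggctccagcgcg
Rpl4 (chr9:64173307-64173406, plus strand): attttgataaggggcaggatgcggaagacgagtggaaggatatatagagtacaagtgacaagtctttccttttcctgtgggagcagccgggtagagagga
Rpl11 (chr4:136053374-136053473, minus strand): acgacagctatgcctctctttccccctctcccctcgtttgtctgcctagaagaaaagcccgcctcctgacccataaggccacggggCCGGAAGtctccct
Rpl27 (chr11:101442165-101442264, plus strand): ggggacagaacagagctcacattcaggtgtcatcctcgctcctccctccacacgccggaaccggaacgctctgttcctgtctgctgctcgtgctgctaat
Rpl36a (chrX:134585574-134585673, plus strand): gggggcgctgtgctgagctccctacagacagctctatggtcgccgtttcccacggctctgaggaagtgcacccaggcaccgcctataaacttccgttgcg
Rps27 (chr3:90213629-90213728, minus strand): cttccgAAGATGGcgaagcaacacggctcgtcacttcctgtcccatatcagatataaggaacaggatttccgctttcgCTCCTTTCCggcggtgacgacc

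In these windows Rps21, which was lower, and Rpl11, which was higher, both held CCGGAAG. A pyrimidine run at the start was found in Rps21 and, among the higher genes, in Rps27, which also held AAGATGG. The letters of Rps16, Rps4x, Rpl4, Rpl27 and Rpl36a in this stretch hold none of the 3 motifs as defined above. Pyrimidine runs that begin outside the given range, such as a long one before the start in Rpl4, were not marked. A match is a description of the letters, and the annotated start may lie some bases from the one used in cortex.

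The longer promoters, 250 bases before to 50 after the start, were available for 61 of the 83 members with 72 starts, and for 32851 starts over all genes. CCGGAAG stood in 25 of the 72 (34.7%) against 8.86% of all promoters. AAGATGG stood in 11 (15.3%) against 6.34%, and a pyrimidine run at the start in 25 (34.7%) against 16.1%. GGGCGG, the core of an SP1 site, stood in 42 (58.3%) against 35.7%, and CACGTG, the E-box bound by MYC and MAX, in 8 (11.1%) against 7.15%. TATAAA stood in 7 (9.72%) against 13.6%, and in the part from base -40 to base -20, where a TATA box lies, in 0 of 72 against 2.36%. Only these exact letters were searched. Other TATA-like letters, as in the Rps27 and Rpl4 promoters shown above, were not counted. All motifs but the pyrimidine run were searched on both strands.

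The same motifs were counted by direction of change. CCGGAAG was in 16 of 41 promoters of members that fell (39%), 3 of 9 of members that rose (33.3%) and 5 of 18 of members that were not called (27.8%). The pyrimidine run was in 14 of 41 (34.1%), 2 of 9 (22.2%) and 9 of 18 (50%) of the same groups. These shares rest on few promoters and were not tested.

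Before the members, 4 facts on the libraries bear on what follows. The libraries held between 26312505 and 65523487 counts in genes, which makes 3 counts, the limit that a count of 0 allows, equal to 0.0469 to 0.112 CPM, the counts scaled to a common library size. Taf8 RNA was at 0.643 ± 0.149 CPM in Taf8-deleted and 34.8 ± 2.75 CPM in wild-type cortex (SD, n = 4 each), which on the log2 scale is a change of -5.75 with an SE of 0.12 (edgeR's quasi-likelihood test, adjusted p = 1.446e-09). Of 15649 genes tested, 59.2% passed the threshold, an adjusted p under 0.05 by that test with Benjamini-Hochberg adjustment over all genes, 29.6% lower and 29.5% higher, and the median log2 fold change was 0.01. Wild-type replicate 3, the deepest library, stood apart, with a chi-square over its degrees of freedom of 22.1 to 27.0 against the other wild-type libraries and of 4.79 to 6.98 among those 3. Calls and signs of the members reported here that changed without it are given below, as a value or a range.

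Most cytosolic ribosomal protein genes were lower in Taf8-deleted cortex. Of the 80 tested, 49 fell, 11 rose and 20 did not pass the threshold. Their median log2 fold change was -0.38 (the middle 50% of genes between -0.58 and -0.01), against 0.01 over all genes, and 60 of the 80 values were negative. Set against the 29.6% of all genes called lower, 61.3% of the tested members were. In 55 of the 80 members the 4 Taf8-deleted libraries lay all on one side of the 4 wild-type libraries, which held for 53.6% of all genes tested. A fall of at least 1.5-fold was called in 20 members, against 9.28% of all genes, and a fall of at least 2-fold in 5, against 3.09% of all genes. Without wild-type replicate 3, 50 members fell, 9 rose and the median was -0.42.

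**Figure D1:**
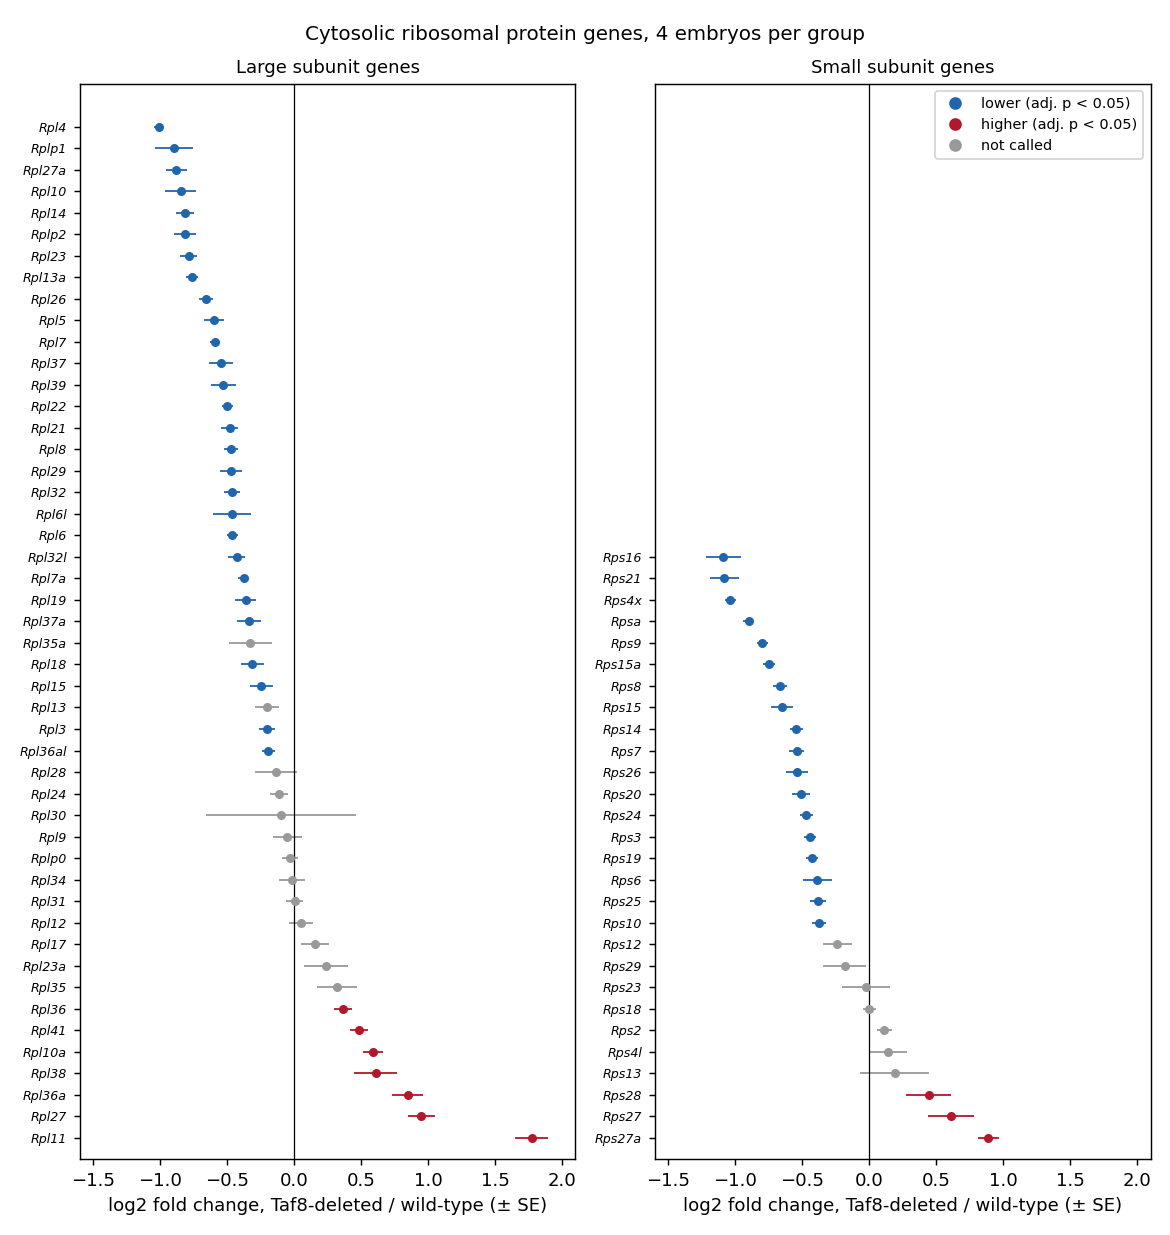
Log2 fold change of 76 of the 80 tested members, Taf8-deleted over wild-type, with its SE as a bar, for the large (left) and small (right) subunit, 4 embryos per group. Blue points are called lower, red points higher and grey points are not called (edgeR, adjusted p under 0.05); the values shown lie between -1.09 for Rps16 and 1.77 for Rpl11.

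As a share of all counts in genes, the members together made up 0.539, 0.587, 0.576 and 0.566% in Taf8-deleted cortex and 0.8125, 0.8125, 0.729 and 0.824% in wild-type cortex. The highest Taf8-deleted library lay below the lowest wild-type one, which was replicate 3. The mean was 0.567 ± 0.0207% in Taf8-deleted and 0.794 ± 0.0442% in wild-type libraries (SD, n = 4 each). In bulk tissue, fewer cells of a type that expresses these genes strongly and less RNA per cell cannot be told apart. How reads that match several places were counted is not stated, so these low shares may hold only a part of the reads from these genes. The fold changes rest on the reads that were counted.

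In both subunits most genes were lower. The large subunit had 29 lower, 7 higher and 13 uncalled genes of 49, with a median of -0.34. The small subunit had 20 lower, 4 higher and 7 uncalled genes of 31, with a median of -0.44. Without wild-type replicate 3, the large subunit median was -0.39 and 2 small subunit genes were called higher. Summed, the large subunit held 0.311 ± 0.0117% of counts in Taf8-deleted and 0.427 ± 0.0231% in wild-type libraries, and the small subunit 0.257 ± 0.00926% in Taf8-deleted and 0.367 ± 0.0221% in wild-type libraries. The ratio of large to small subunit counts was 1.198, 1.197, 1.220 and 1.225 in Taf8-deleted libraries, against 1.126, 1.161, 1.178 and 1.188 in wild-type libraries. All 4 ratios were higher in Taf8-deleted cortex, by little between the closest libraries.

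**Figure D2:**
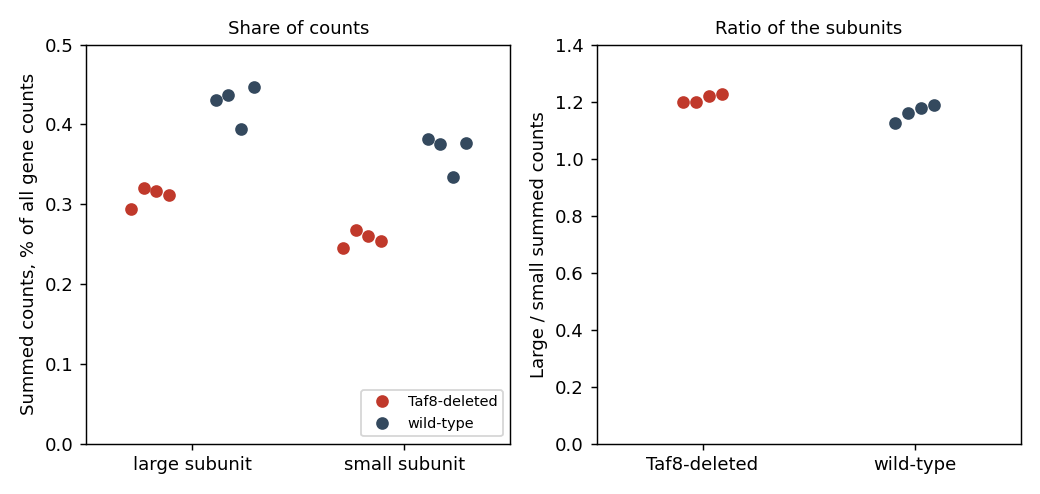
Summed counts of large and small subunit members as a percent of all counts in genes (left) and their ratio (right), one point per library, with Taf8-deleted points left of wild-type points. Both subunits separate the groups, and the ratio lies between 1.197 and 1.225 in Taf8-deleted and between 1.126 and 1.188 in wild-type libraries.

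Among the members with the largest falls was Rps21, a small subunit protein needed for the late maturation of its subunit, which had 40.0, 43.0, 42.1 and 42.5 CPM in Taf8-deleted libraries and 98.8, 93.3, 67.1 and 96.2 CPM in wild-type libraries. Wild-type replicate 3 was the lowest of its group, without reaching the Taf8-deleted values. Its log2 fold change was -1.08 (SE 0.11, edgeR adjusted p = 1.11e-05). Rps16, whose tail reaches the decoding site, was at 5.68 ± 0.458 CPM in Taf8-deleted and 12.2 ± 2.09 CPM in wild-type cortex, a log2 fold change of -1.09.

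Rps4x, the X-linked small subunit protein, had 92.5, 97.0, 94.5 and 94.3 CPM in Taf8-deleted libraries and 197, 199, 182 and 197 CPM in wild-type libraries. Within each group these values were tight. The log2 fold change was -1.04 (SE 0.04, edgeR adjusted p = 4.49e-08). The genes on chromosome X also include Rpl10 and Rpl39, which fell, and Rpl36a, which rose.

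Rpl4, whose loop lines the exit tunnel, was one of the most abundant members, with 405, 441, 426 and 433 CPM in Taf8-deleted libraries and 873, 867, 812 and 879 CPM in wild-type libraries. Its level in every Taf8-deleted library was close to 0.5 times that of the wild-type mean. The log2 fold change was -1.01 (SE 0.04, edgeR adjusted p = 4.49e-08). Rpsa, the small subunit protein also known as the laminin receptor, fell by 0.90 on the log2 scale and Rpl27a by 0.88.

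Fewer members rose, and the largest rise was that of Rpl11, which forms a particle with Rpl5 and the 5S ribosomal RNA and can bind and block Mdm2. Rpl11 had 6.12, 6.46, 5.95 and 5.38 CPM in Taf8-deleted libraries and 2.09, 1.62, 1.502 and 1.84 CPM in wild-type libraries. The lowest Taf8-deleted value was above 2 times the highest wild-type value, on 159 to 285 counts against 63 to 96. The log2 fold change was 1.77 (SE 0.13, edgeR adjusted p = 1.21e-06). Rpl5, its partner, moved the other way, with 23.6 ± 1.57 CPM in Taf8-deleted and 35.7 ± 3.61 CPM in wild-type cortex (log2 fold change -0.60, adjusted p = 7.28e-05).

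Rpl27 had 14.7, 14.5, 12.8 and 13.7 CPM in Taf8-deleted libraries and 8.40, 7.80, 6.12 and 6.73 CPM in wild-type libraries, a log2 fold change of 0.95. Rps27a, which is made as a fusion with ubiquitin and so also supplies the cell with ubiquitin, had 11.6, 11.9, 11.1 and 12.02 CPM in Taf8-deleted libraries against 6.34, 6.95, 5.71 and 6.31 CPM in wild-type libraries, a log2 fold change of 0.89. Neither gene's groups overlapped. Rpl36a and Rps27 rose by 0.85 and 0.61 on the log2 scale. Rps27 had 63 to 168 counts in Taf8-deleted and 50 to 150 in wild-type libraries (edgeR adjusted p = 0.0113). Its groups nearly touched, at 2.356 CPM in Taf8-deleted and 2.346 CPM in wild-type replicate 3. The Rps27 call was lost against a 1.2-fold change and at an adjusted p under 0.01. Rpl38, known in mice for its part in the patterning of the axial skeleton, rose by 0.61.

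Among the members that rose, Rpl41 and Rpl10a had the most counts. Rpl41, a very short basic peptide at the joint of the subunits, had 209, 247, 238 and 241 CPM in Taf8-deleted libraries and 170, 172, 149 and 176 CPM in wild-type libraries. It was the one higher member of the 22 with a wild-type mean of at least 100 CPM, of which 19 fell, and its log2 fold change was 0.48 (SE 0.07, edgeR adjusted p = 1.16e-04). Rpl10a, the protein of the L1 stalk that guides the outgoing transfer RNA, was at 31.8 ± 1.79 CPM in Taf8-deleted and 21.2 ± 2.18 CPM in wild-type cortex, a log2 fold change of 0.59. The other 9 higher members all had a wild-type mean under 20 CPM, where 30 of the 80 tested members and 7 of the 49 lower ones lay. Sorting by wild-type level itself leans high members toward falls and low ones toward rises.

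**Figure D3:**
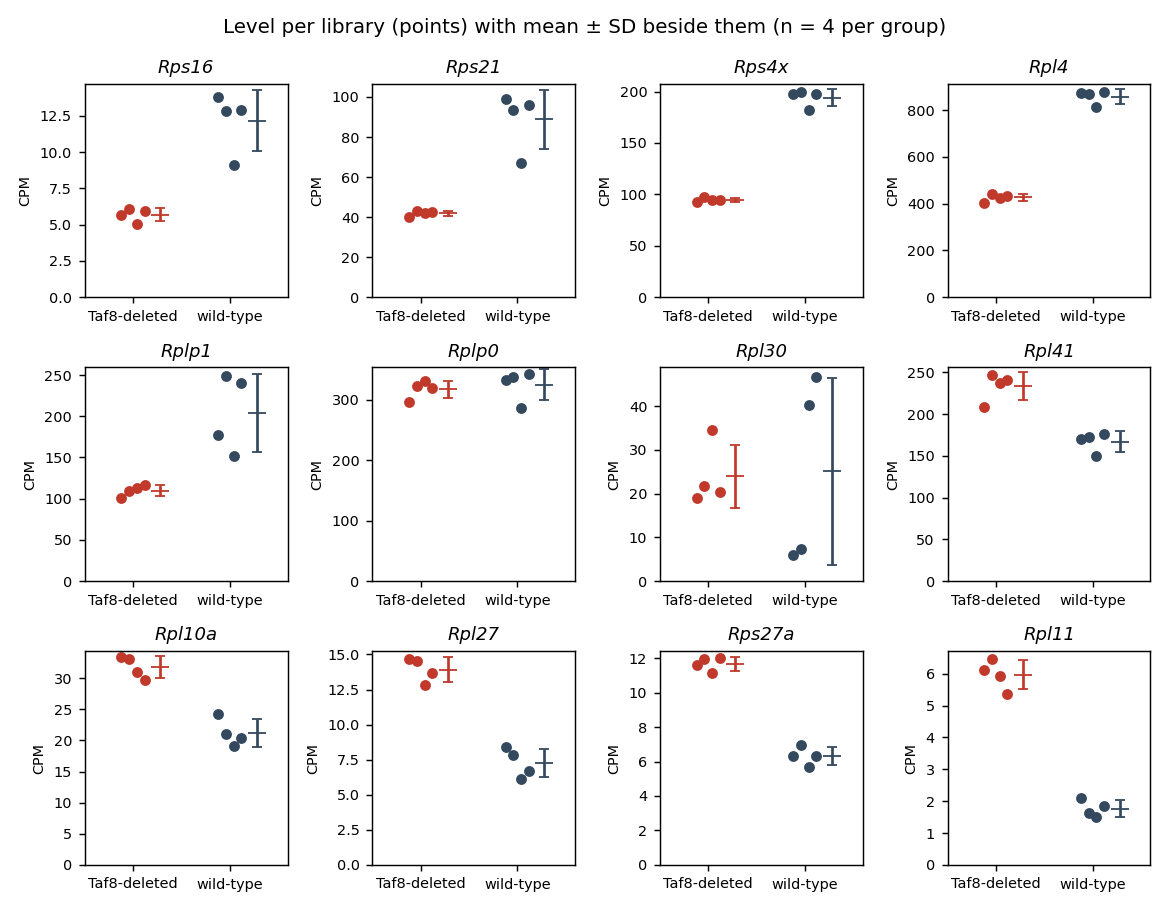
CPM per library for 12 members, with the group mean ± SD beside the points (n = 4 per group) and Taf8-deleted left of wild-type. Rps16, Rps21, Rps4x, Rpl4 and Rplp1 are lower in every Taf8-deleted library, Rplp0 and Rpl30 overlap between groups, and Rpl41, Rpl10a, Rpl27, Rps27a and Rpl11 are higher in every Taf8-deleted library.

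Members that sit together on the ribosome did not all move together. On the acidic stalk, where elongation factors bind, Rplp1 had 101, 109, 113 and 117 CPM in Taf8-deleted libraries and 177, 249, 152 and 240 CPM in wild-type libraries. Wild-type libraries varied widely, and still the groups did not overlap. The log2 fold change of Rplp1 was -0.90 (SE 0.14, edgeR adjusted p = 0.000280), and that of its dimer partner Rplp2 was -0.81. Rplp0, on which both are anchored, had 297, 323, 331 and 319 CPM in Taf8-deleted libraries and 333, 337, 287 and 342 CPM in wild-type libraries, which overlap (log2 fold change -0.03, adjusted p = 0.668). The overlap came from wild-type replicate 3 alone. Without that library Rplp0 was at -0.09 and still not called (edgeR adjusted p = 0.0955). Rpl12, at the base of that stalk, was not called either, at 10.3 ± 0.868 CPM in Taf8-deleted and 10.01 ± 0.951 CPM in wild-type cortex. With Rpl10a and Rpl11 counted in, the stalk list had 2 lower, 2 higher and 2 uncalled of 6 tested. Rpl5, the partner of Rpl11, fell and is not in that list.

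Around the exit tunnel, 5 of 9 genes fell and none of the 9 rose. Rpl4 was lowest at -1.01, followed by Rpl26 at -0.66, Rpl39 at -0.53, Rpl22 at -0.50 and Rpl19, which also bridges the subunits, at -0.36. Rpl17, Rpl23a, Rpl31 and Rpl35 were not called, with values between 0.00 and 0.32.

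At the peptidyl transferase centre and the subunit joint, 4 of 6 fell. They were Rpl10, among the last proteins to join the large subunit, at -0.84, Rpl8 at -0.47, Rpl19 and Rpl3, which lies close to the catalytic site, at -0.20. Rpl41 rose, and Rpl24, a bridge protein, was not called (log2 fold change -0.12, edgeR adjusted p = 0.164).

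In the small subunit, the list around the decoding site and the path of the messenger RNA had 6 lower, 2 higher and 2 uncalled genes of 10. Rps9 (-0.80), Rps15 (-0.65), Rps26 (-0.54), Rps24 (-0.47), Rps3 (-0.44) and Rps25 (-0.38) fell. Rps3 sits at the entry of the messenger RNA and Rps26 at its exit. Rps27a rose, and so by a small margin did Rps28, at 2.70 ± 0.358 CPM in Taf8-deleted and 2.01 ± 0.427 CPM in wild-type cortex, with groups that overlap (log2 fold change 0.44, edgeR adjusted p = 0.0423). That call was lost when any one of Taf8-deleted replicates 2, 3 and 4 or wild-type replicates 2, 3 and 4 was left out, with an adjusted p of up to 0.126. Rps2 and Rps23 were not called, at 0.11 and -0.02.

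The list of small subunit proteins of late assembly and signalling had 7 lower and 1 higher of 8. Rps21, Rpsa, Rps14 (-0.54), Rps20 (-0.51), Rps19 (-0.43), Rps6 (-0.39) and Rps10 (-0.37) fell. Rps19 is the gene most often mutated in human Diamond-Blackfan anaemia, and Rps6 is the target of the S6 kinases.

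Some members have a close copy that is also a member. Rpl32 (-0.47) and Rpl32l (-0.43) both fell, as did Rpl6 (-0.46) and Rpl6l (-0.46), the last typed as a pseudogene by RefSeq. Rps4x fell, and Rps4l, which RefSeq types as a transcribed pseudogene, was at 38.1 ± 7.34 CPM in Taf8-deleted and 34.4 ± 5.06 CPM in wild-type cortex and was not called (log2 fold change 0.14). Rpl36a rose by 0.85 on the log2 scale, at 4.88 ± 0.238 CPM in Taf8-deleted and 2.70 ± 0.348 CPM in wild-type cortex. Its autosomal copy Rpl36al fell by 0.19 on the log2 scale, at 28.3 ± 1.24 CPM in Taf8-deleted and 32.3 ± 1.09 CPM in wild-type cortex. Per kilobase, Rpl36a stood at 9.99 and Rpl36al at 54.8 CPM in Taf8-deleted cortex, against 5.51 and 62.5 CPM in wild-type cortex. The differences between paralogs were not tested. How reads that match both copies of a pair were counted is not stated, so the rows of a pair may not be independent. Rpl10l had no count in any library, Rpl39l had 0 to 2 counts in Taf8-deleted and 1 to 6 in wild-type libraries, and Rpl3l had 1 to 5 in Taf8-deleted and 0 to 1 in wild-type libraries. These 3 are known from testis or striated muscle and were too low to be tested.

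Rpl30, which binds its own RNA in yeast, had the largest SE of the tested members. It had 19.1, 21.6, 34.6 and 20.4 CPM in Taf8-deleted libraries and 5.97, 7.35, 40.3 and 46.7 CPM in wild-type libraries. Wild-type replicates 1 and 2 lay below all Taf8-deleted libraries and wild-type replicates 3 and 4 above them. The log2 fold change was -0.10 with an SE of 0.56 (edgeR adjusted p = 0.892), so no direction can be given.

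Levels per length differed widely between members. In wild-type cortex they ran from 2.12 CPM per kilobase for Rpl23a to 806 for Rpl8, 381-fold apart, although the ribosome holds nearly all of these proteins in equal number. Other high levels were those of Rps9 at 668, Rpl4 at 603 and Rps15 at 587 CPM per kilobase. Each of these 4 genes fell, Rpl8 with a log2 fold change of -0.47. They were picked by wild-type level, the denominator of the fold change, and such a choice leans toward falls. In Taf8-deleted cortex the levels were 582 CPM per kilobase for Rpl8, 385 for Rps9, 299.8 for Rpl4 and 374 for Rps15. Rpl41, which rose, was at 520 CPM per kilobase in Taf8-deleted and 372 in wild-type cortex.

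The level went with the direction of change. Of the 40 members above the median level per kilobase over all 8 libraries, 33 fell and 2 rose, with a median log2 fold change of -0.49. Of the 40 at or below it, 16 fell and 9 rose, with a median of -0.16. Over the 80 members, Spearman's rho of the log2 fold change with the mean level per kilobase was -0.53. The points share the same 8 libraries, so this is given as a description.

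How many near copies a member has was read in 3 ways. The RefSeq gene table names 0 to 24 pseudogenes per member, with a median of 2 among those tested. GENCODE pseudogenes were assigned to the member they match best, with a median of 16. The third was the share of 81-base windows of a member's transcripts that occur unchanged in a GENCODE transcript of another locus, 81 bases being the read length. It ran from 0 to 84.4% with a median of 26.4%. Copies without a GENCODE transcript, such as Rpl32l, were not searched, so a low share does not mean a sequence unique in the genome. Rpl7a had the most GENCODE pseudogenes, 165, followed by Rpl29 with 125, Rpl21 with 113 and Rps2 with 100, while Rpl8 had 1.

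Among members with few and among those with many named pseudogenes, the share called lower was above the 29.6% of all genes. With more than 2 named pseudogenes, 18 of 35 fell and 5 rose, with a median of -0.33. With 2 or fewer, 31 of 45 fell and 6 rose, with a median of -0.46. By GENCODE pseudogenes the counts were 23 lower and 4 higher of 38 above the median and 24 lower and 7 higher of 39 at or below it, with medians of -0.37 and -0.47. By shared windows they were 18 lower and 8 higher of 38 above the median and 29 lower and 3 higher of 39 at or below it, with medians of -0.20 and -0.47. The rank correlation with the log2 fold change was 0.17 for named pseudogenes (80 members), 0.17 for GENCODE pseudogenes and 0.32 for shared windows (77 members each).

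The same measure went with the level. Spearman's rho of the wild-type level per kilobase with the share of shared windows was -0.49, with named pseudogenes -0.35 and with GENCODE pseudogenes -0.37. Rpl8, with 3.3% of its windows shared, and Rps3, with none, were among the members of high level, and both fell. Rpl23a, with 81.0% shared, was the least abundant per kilobase. No source used here says how reads that match several places were counted, so the levels of members with many near copies are uncertain, and the part of these copies in the direction of change was not tested. By shared windows, Rpl11, with 52.4% of its windows shared at 8 other loci, and Rpl36a, with 84.4%, belong to those members. So do Rpl7a, with 76.5%, and Rps4x, with 48.5%, which fell. By named and GENCODE pseudogenes, Rpl11 (0 and 10) and Rps4x (1 and 12) were below the medians of 2 and 16. Rpl36a (3 and 16) was above the first median and at the second.

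**Figure D4:**
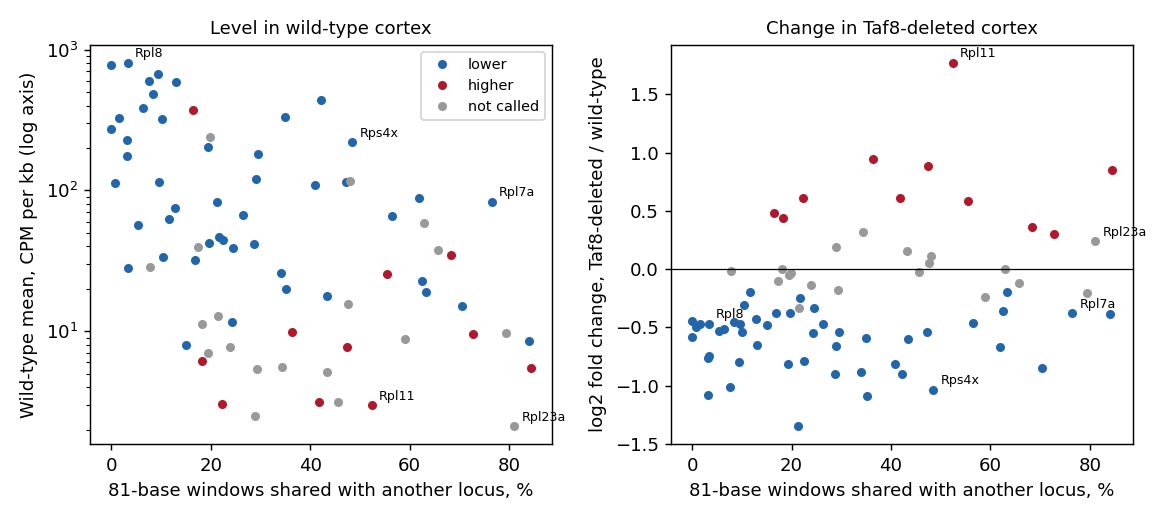
Wild-type mean level in CPM per kilobase on a log axis (left) and log2 fold change, Taf8-deleted over wild-type (right), against the percent of 81-base windows that a member shares with a GENCODE transcript of another locus, one point for each of 77 tested members, coloured by call. Levels are lower towards the right (rho -0.49), and 8 of the 11 higher members lie above the median of 26.4%.

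Pseudogene rows of the count table itself gave a further reading. The table held 34 entries named as a pseudogene of a member, 10 of them with enough counts to be tested, of which 5 fell and 1, Rpl15-ps6, rose. Rps15a-ps5 (-0.97) fell as its parent Rps15a (-0.75) did. For Rpl36 the call depended on the pseudogene row. Rpl36 had 18.2 ± 1.29 CPM in Taf8-deleted and 14.1 ± 0.748 CPM in wild-type cortex and was called higher (log2 fold change 0.37, edgeR adjusted p = 0.000988). Rpl36-ps12 had 63.9 ± 4.03 CPM in Taf8-deleted and 76.0 ± 7.90 CPM in wild-type cortex, more than its parent in both. With pseudogene rows added to their parents, Rpl36 was at -0.15 and not called (adjusted p = 0.0981).

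A list of 10 genes outside the rule holds ribosomal proteins with other symbols, paralogs of ribosomal proteins and the related assembly factors Rsl24d1 and Rsl1d1. Of the 10, 7 fell and 3 rose. Rps3a1, at 59.6 ± 3.71 CPM in Taf8-deleted and 108 ± 1.05 CPM in wild-type cortex, fell by 0.85 on the log2 scale. Rack1, a scaffold on the head of the small subunit, was at 721 ± 16.8 CPM in Taf8-deleted and 957 ± 33.1 CPM in wild-type cortex, a log2 fold change of -0.41. Fau, which is made as a fusion with a ubiquitin-like protein, was at -0.63, and Rpl22l1, the paralog of Rpl22, was at -0.64. Rps27l, a paralog of Rps27, rose by 0.20, and the assembly factors Rsl24d1 and Rsl1d1 by 0.16 and 0.13.

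Other genes with TOP messenger RNAs, as a list of 25 that shares Rack1, Fau, Rps3a1 and other genes with the last list, had 20 lower, 2 higher and 3 uncalled, with a median of -0.37. Eif3f and Eif4b, which act in the start of translation, were at 185 and 263 CPM in Taf8-deleted and 312 and 425 CPM in wild-type cortex, log2 fold changes of -0.76 and -0.69. Eef2, the translocation factor, was at 1730 ± 72.3 CPM in Taf8-deleted and 2609 ± 164 CPM in wild-type cortex (-0.59). Gas5, a noncoding host of small nucleolar RNAs with a TOP start, was at 94.0 ± 5.04 CPM in Taf8-deleted and 149 ± 7.005 CPM in wild-type cortex (-0.66). Vim and Pabpc1 rose by 0.60 and 0.20.

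Mitochondrial ribosomal protein genes, which serve a separate ribosome and mostly have no TOP start, were called in both directions in near equal number. Of 78, 28 fell and 29 rose, with a median of 0.04. Mrps28 (-1.52), Mrpl54 (-1.10) and Mrpl3 (-0.53) fell and Mrpl57 (0.57) rose. Among 66 tested initiation and elongation factors, 25 fell and 16 rose, with a median of -0.06. The difference between these lists and the cytosolic members was not tested.

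**Figure D5:**
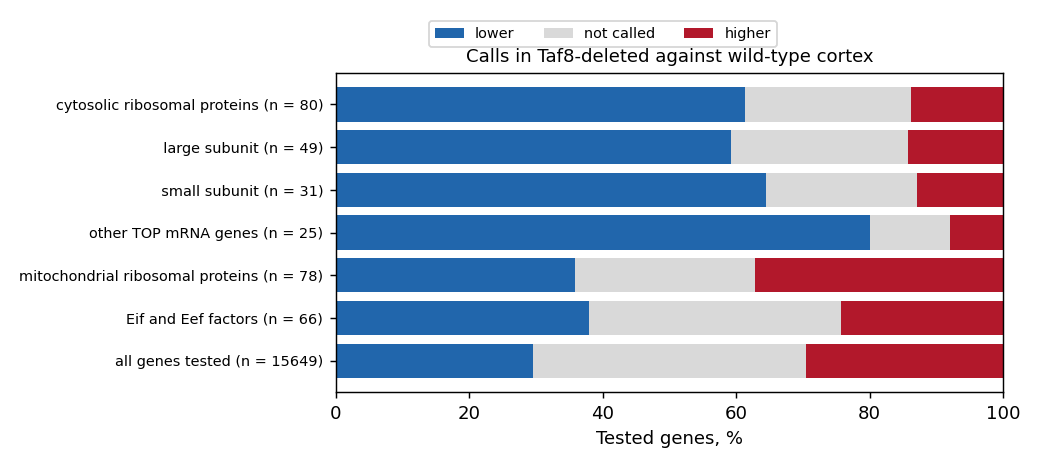
Percent of tested genes called lower (blue), not called (grey) and higher (red) in Taf8-deleted against wild-type cortex, for the members, each subunit, other TOP genes, mitochondrial ribosomal proteins, translation factors and all genes tested. Lower calls make up 61.3% of the cytosolic members, 80% of the other TOP genes, 35.9% of the mitochondrial genes and 29.6% of all genes.

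Genes that escort ribosomal proteins or carry them into the nucleus had 8 lower, 2 higher and 6 uncalled of 16. Bccip, whose yeast counterpart escorts Rpl23, was at 34.2 ± 1.67 CPM in Taf8-deleted and 53.2 ± 2.13 CPM in wild-type cortex (-0.64), and Heatr3, which helps to import Rpl5, at 49.2 ± 2.09 CPM in Taf8-deleted and 65.2 ± 6.79 CPM in wild-type cortex (-0.40). The importins Kpnb1 and Ipo7 were at -0.37 and -0.39. Hgh1 rose by 0.42 and Pdcd2, a chaperone of Rps2, by 0.35. The place of Hgh1 in this list does not show that it escorts a ribosomal protein.

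Genes that control TOP messenger RNAs or the transcription of ribosomal protein genes had 6 lower, 6 higher and 14 uncalled of 26. Mlst8, a subunit of both mTOR complexes, had 18.5, 17.6, 20.4 and 20.1 CPM in Taf8-deleted libraries and 61.0, 61.1, 51.9 and 60.6 CPM in wild-type libraries. Its groups were far apart, with a log2 fold change of -1.61 (SE 0.07, edgeR adjusted p = 5.87e-08). Mtor rose by 0.38 and Cnbp, which binds TOP messenger RNAs, by 0.45, while Larp1 fell by 0.31. Gabpa, whose protein binds CCGGAAG, was at 74.3 CPM in Taf8-deleted and 84.2 CPM in wild-type cortex (-0.18), and Yy1 at 126 CPM in Taf8-deleted and 111 CPM in wild-type cortex (0.18).

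Free Rpl5 and Rpl11 can hold back Mdm2 and so raise the p53 protein. Of 11 genes around Mdm2 and p53, 4 fell, 2 rose and 5 were not called. Mdm2 was at 94.9 ± 4.31 CPM in Taf8-deleted and 95.9 ± 2.23 CPM in wild-type cortex (log2 fold change -0.02). Trp53 itself was at -0.32, Cdkn1a at 0.42, Pmaip1 at 0.63, Bbc3 at -0.53 and Eda2r at -0.97. The p53 targets called thus lay in both directions.

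Markers of cell types moved between the same groups. Of 15 markers of cortical progenitors and neurons, 9 fell and 3 rose, and their summed level was 5558 to 6176 CPM in Taf8-deleted and 7065 to 7800 CPM in wild-type libraries. Neurod6, Neurod2 and Bcl11b, genes of differentiating neurons, were at -1.36, -0.83 and -0.74, while the progenitor genes Hes5 and Pax6 were at 0.58 and 0.46. All 15 were detected. No other brain region was compared, so their detection does not test the label of cortex.

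Other cell types' markers were mostly higher. Meningeal markers had 9 higher of 11 tested and a summed level of 85.5 to 227 CPM in Taf8-deleted and 50.2 to 90.4 CPM in wild-type libraries, with Taf8-deleted replicate 4 inside the wild-type range. Endothelial and pericyte markers had 11 higher of 12 (258 to 331 CPM against 214 to 232 CPM in wild-type libraries), microglial markers 6 higher and 1 lower of 12 (57.3 to 74.9 CPM against 51.6 to 60.8 CPM in wild-type libraries) and red cell markers 5 higher of 9 tested (350 to 472 CPM against 259.1 to 338 CPM in wild-type libraries). No list's summed level was at 0 in any library. The part of these cell types in the lower level of the ribosomal protein genes was not tested.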

How the data were processed

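RNA of 8 embryonic cortices was measured as counts per gene. The authors deposited raw counts, made with Subread 1.5.0 and featureCounts on mm10 per the submitters' processing notes. No source used here gives the annotation, the strand setting or the treatment of multiply mapped reads, so members with near copies, and the 15 whose span overlaps another gene, are uncertain. RNA was isolated with RNeasy and libraries were made with TruSeq Stranded mRNA, per the labels' protocols. The single-sample files differed from the matrix in 0 places, and no column was left without a sample.

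Symbols came from RefSeq for 25275 genes and from GENCODE for 18, and 1886 had none. The test was the quasi-likelihood F-test of edgeR 4.0.16 (R 4.3.3) with group as the term, TMM scaling and the filterByExpr filter, over 15649 genes, with a threshold of 0.05. SE is the absolute log2 fold change over the root of F. CPM use TMM-scaled totals, and per kilobase means per kilobase of the deposited gene length. Groups came from the labels. Same-numbered libraries did not deviate together, so numbers were not used as pairs. The chi-square of within-group pairs over its degrees of freedom was 3.56 to 26.98, more than sampling noise gives, and no library was treated as a repeat. Floors cover counting error only. An exact two-sided permutation test of Taf8 over 70 permutations gave p = 0.0286, the smallest it can give.

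GENCODE pseudogene transcripts (14420) were searched with blastn 2.17.0 and 1835 were assigned to their best member at 80% identity over 50% of their length. RefSeq pseudogenes were counted by symbol and synonyms, since the table used has no descriptions. Protein identity between paralogs was not analysed here. Steps were tested on simulated data.

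The members and lists were chosen with earlier results of these data known. The text names Taf8, the 8 largest falls and 8 largest rises among members called with groups that do not overlap, the 6 highest levels per kilobase, filtered members, members of the role and paralog lists, members with the most and the fewest pseudogenes, and up to 4 genes of each other list by smallest adjusted p. Some genes that this rule takes are not reported here. Rpl30, Rpl36 and further genes of the other lists were named after their values were seen.

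Alternatives were size factors, upper-quartile scaling, library size alone, no filter, 1 CPM in 4 libraries, DESeq2 1.42.0, limma 3.58.1 voom, a replicate block, a test against a 1.2-fold change, an adjusted p under 0.01, each library left out, other splits by pseudogenes and pseudogene rows summed with the parent. The split by GENCODE pseudogenes was added after seeing the data.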

Additional observations from a re-analysis of the deposited data

Results flagged for a closer look

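Some of the 168 sets of 4 values checked (each tested member in each group, and the summed measures) held a library far from the other 3. There were 15 such sets, by Dixon's test at 95%, where chance gives about 1 in 20, or 8.4.

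Wild-type replicate 3, the deepest library, was the lowest of its group in 8 of the 14 given here. It had 172.8 CPM of Rpl13a (others 182.9 to 184), 9.181 of Rpl37 (10.27 to 10.45), 621.1 of Rpl8 (718.9 to 720.2), 286.7 of Rplp0 (333.3 to 342.4), 252.5 of Rps15 (318 to 331.2) and 181.6 of Rps4x (197.4 to 199.4). The summed members made up 0.7286% of its counts, and the small subunit members 0.3345%. In wild-type replicate 2, Rpl17 was low at 3.513 CPM (4.098 to 4.125) and Rpl24 high at 26.64 CPM (25.02 to 25.22).

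In Taf8-deleted libraries, replicate 3 was low in Rpl13 at 5.796 CPM (6.775 to 6.881) and high in Rpl30 at 34.63 CPM (19.09 to 21.65). Replicate 1 was low in Rpl26 at 38.74 CPM (42.03 to 42.56), and replicate 4 in Rpl36a at 4.529 CPM (4.974 to 5.037).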

How the results depend on the processing

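Of the 60 members called, 48 kept their direction and call under all 19 alternatives, and of the 20 not called, 8 kept their sign and stayed uncalled. Members called lower numbered 48 to 50 with any library left out and the median of all members lay between -0.44 and -0.39, that of the large subunit between -0.41 and -0.30 and that of members with many named pseudogenes between -0.39 and -0.28, while small subunit members called higher numbered 2 to 4. With library size alone the medians were -0.34 for all members, -0.29 with many and -0.42 with few named pseudogenes. The median with many was -0.29 with limma voom, -0.29 for members with more than 4 named pseudogenes (1 of these higher) and -0.37 by GENCODE pseudogenes.

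Against a 1.2-fold change, 2328 genes were lower and 2307 higher. Members higher numbered 7 and uncalled 32, with 21 uncalled in the large subunit, 1 higher and 11 uncalled in the small subunit, and 3 higher and 16 uncalled with few named pseudogenes. At an adjusted p under 0.01, the small subunit had 1 higher and 11 uncalled, and members with few named pseudogenes 3 higher and 13 uncalled. Replicate numbers did not pair the libraries (correlations of -0.28, 0.01, -0.07 and -0.46 between deviations), and with the replicate block 2 small subunit members were higher.

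Of members whose sign turned, only Rpl36 was called (-0.15 with pseudogene rows summed). Rpl30 was at 0.26 with voom and 0.34 with the replicate block. With library size alone Rplp0 was at 0.0094, Rpl34 at 0.028 and Rps23 at 0.019, and with upper-quartile scaling Rpl34 was at 0.016 and Rps23 at 0.0065. Rpl34 was at 0.0084 with voom. Rpl31 was at -0.0025 with size factors, -0.0013 with no filter and -0.0068 with pseudogene rows summed, and Rps18 at -0.0042, -0.0029 and -0.012 there and -0.0045 with DESeq2. With 1 library left out, Rpl30 ran between -0.42 and 0.34, Rpl31 between -0.031 and 0.012, Rpl34 between -0.12 and 0.034, Rps13 between -0.098 and 0.34, Rps18 between -0.040 and 0.0074, and Rps23 between -0.17 and 0.064. The causes were not tested. Rpl15 also lost its call without Taf8-deleted replicate 2 or 3 or wild-type replicate 3. Rpl13, Rpl24, Rpl35, Rpl35a and Rps12 passed the threshold when single libraries were left out. Without wild-type replicate 3, Rpl15 was at -0.17, Rpl13 at -0.26 and Rpl35a at -0.44 (edgeR adjusted p = 0.0571, 0.0258 and 0.0241). Members under 20 CPM rest on few counts.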
